A study of Mus musculus with 18 samples.

Results

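The intestine of mice that made histone H3 with lysine 9 replaced by methionine (K9M) was set directly against the intestine of mice that made H3 with lysine 36 replaced by methionine (K36M). The comparison takes 4 of the 18 libraries of the series: those labelled K9M (mice 1516 and 1519) and K36M (mice 1485 and 1553) among the intestine samples, with every gene and without the wild-type (WT) libraries in the test. Each library held polyadenylated RNA of dissociated intestinal cells from 1 mouse of a C57B6/129 hybrid background, 6 to 8 weeks old, that drank water with 2 mg/ml doxycycline. The series title calls the mutant histones inducible, and doxycycline was given to the mice of every group. How long the mice were induced, which promoter drove the histone, which stretch of intestine was taken and at what time of day are not given in the sources used here. The same 4 mice also gave testes libraries, and 2 WT mice gave intestine values that are printed beside the mutants as a description. Throughout, a pair of values is given in the order 1516 and 1519 for K9M, 1485 and 1553 for K36M, and of ascending mouse number for WT.

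Methylation of H3 lysine 9 marks compact, silent chromatin and is written by enzymes such as SETDB1, G9a (Ehmt2) and SUV39H1. Methylation of H3 lysine 36 lies over active genes and between them, is written by SETD2 and the NSD enzymes, and is known to limit the spread of Polycomb repression. A histone in which 1 of these lysines is methionine binds the matching enzymes and lowers methylation of that lysine on other histones too. The intestinal lining is renewed from stem cells at the crypt base, which give absorptive enterocytes and secretory goblet, Paneth, enteroendocrine and tuft cells, with T cells lodged between them.

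Counts in genes were 20577661 and 18104336 in K9M and 13396303 and 15234722 in K36M, so the K36M libraries were the shallower ones. The K36M mice also differed more from each other than the K9M mice did. The median absolute log2 difference between mice of a group was 0.180 in K9M, 0.356 in K36M and 0.221 in WT, and 2.22%, 11.9% and 5.15% of genes differed more than 2-fold within the group. Of all reads listed, 12.0% to 17.3% lay in no feature, with the K36M mice at both ends. Enterocyte enzyme genes were abundant in all 4 libraries, with the 22 listed genes at a summed level of 23995 to 45449 CPM, where CPM is the count scaled to library size after adjusting for composition (TMM). The defining genes of the labelled tissue were thus present. Mitotic genes set K36M mouse 1553 apart, at a sum of 435 CPM against 99.7 in K36M mouse 1485, and the list of testis germ cell genes reached 464 CPM in the first WT mouse against 38.9 to 94.3 CPM in the mutants. The transcript of the induced histone has no entry of its own in the count files, so the labels could not be checked on it. Of the genes for the H3.3 variant, H3f3a stood at 298 and 295 CPM in K9M and 284 and 231 in K36M, and H3f3b at 272 and 254 CPM in K9M and 357 and 305 in K36M, neither of them called.

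By the quasi-likelihood test of edgeR, 2886 of 13639 tested genes (21.2%) had a Benjamini-Hochberg adjusted p under 0.05 and are said to be called, with 1387 (10.2%) higher in K9M and 1499 (11.0%) higher in K36M. Differences are given as log2 of K9M over K36M with their standard error (SE), so a positive value is higher in K9M. The SE was worked back from the test, as the absolute log2 difference over the square root of its F statistic. It is not a separate estimate. Differences of at least 2-fold were called in 1002 genes higher in K9M and 1308 higher in K36M. At 16-fold or more the sides were unequal, with 62 genes in K9M and 337 in K36M. Called genes without a single count in the K36M group numbered 13, and those without one in the K9M group 66. Both mice of one mutant lay beyond both of the other in 9254 genes (67.8%), so groups that do not overlap were the usual case. Calls in the lists below stand against these shares: 21.2% of all genes called, 10.2% higher in K9M and 11.0% higher in K36M. The call rests on 2 residual degrees of freedom. With either K9M library left out, the spread came from the K36M pair alone and 552 (without mouse 1516) and 598 (without mouse 1519) genes were called. Without K36M mouse 1485 or 1553 there were 4423 and 4993. Scaling by library size alone moved the median of all genes from -0.02 to -0.15 and gave 993 genes higher in K9M and 1765 higher in K36M, so the balance of the sides depends on the scaling.

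**Figure D1:**
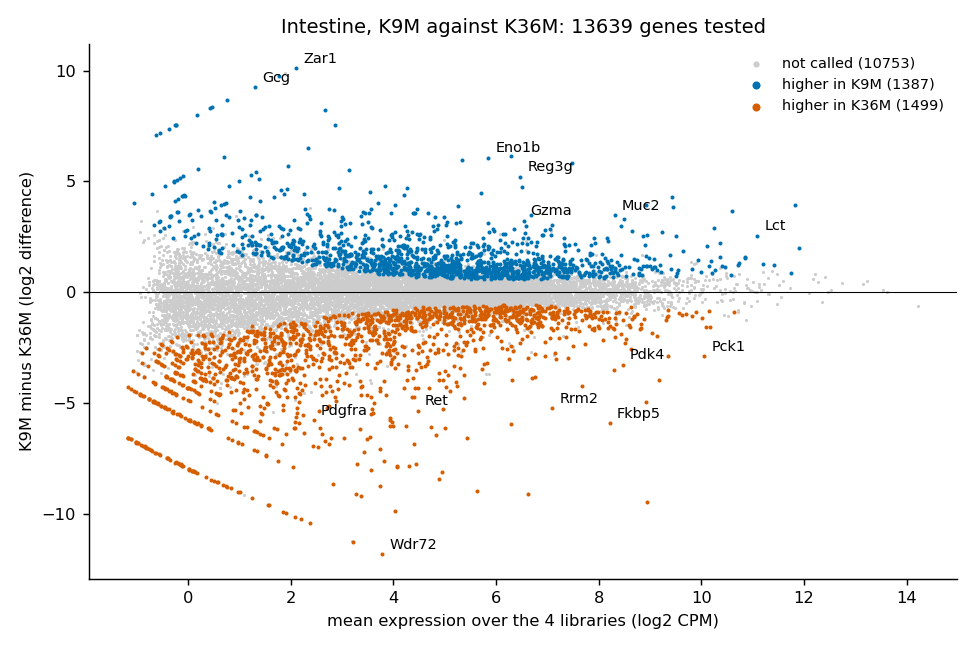
Each point is 1 of the 13639 genes tested, placed by its mean level over the 4 libraries (log2 CPM, horizontal) and its K9M minus K36M difference (log2, vertical). Blue points were called higher in K9M (1387), orange points higher in K36M (1499) and grey points were not called. The slanted lines of points at the left are genes with no count or few counts in 1 of the mutants, and more orange than blue points lie beyond 4 log2 units.

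T and NK cell genes had the highest median of the 43 lists, and their calls were all in one direction. Of 16 tested genes, 13 were called higher in K9M (background 10.2% of all genes), and the median log2 difference was 2.64 against -0.02 over all genes. Gzma, a granule protease of cytotoxic lymphocytes, stood at 141 and 193 CPM in K9M and 20.0 and 15.8 in K36M (3.22 ± 0.25, adjusted p = 0.00602). Gzmb, another granzyme gene, stood at 57.6 and 57.0 CPM in K9M and 7.23 and 3.78 in K36M (3.39 ± 0.34, adjusted p = 0.00897). For Cd3e, a chain of the T cell receptor complex, the values were 9.05 and 11.0 CPM in K9M and 1.36 and 1.56 in K36M (2.77 ± 0.33, adjusted p = 0.0107). In each of these the K36M mice were low and the K9M mice lay close to WT, which had 179 and 178 CPM for Gzma, 64.8 and 60.0 for Gzmb and 11.6 and 15.02 for Cd3e. Other called members, outside the rule for named genes and chosen with their values seen, were the co-receptor gene Cd8a (23.6 and 36.03 CPM in K9M, 8.06 and 7.09 in K36M), the integrin gene Itgae, which holds lymphocytes in the epithelium (17.6 and 20.2 against 7.31 and 5.77), and the chemokine gene Ccl5 (40.2 and 54.95 against 9.34 and 4.93). The listed genes summed to 342 and 450.3 CPM in K9M, 71.9 and 49.2 in K36M and 428 and 449.7 in WT. In bulk RNA, fewer cells of a type and less RNA per cell cannot be told apart, here and for the cell types below. Without K9M mouse 1516 or 1519, 7 and 4 members passed, with medians of 2.86 and 2.28.

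Genes of goblet cells, which secrete the mucus layer, were called in one direction as well. Of 22 tested genes, 6 were higher in K9M (27.3%, against 10.2% of all genes) and the median was 0.94. Muc2, the main gel-forming mucin, stood at 513 and 652 CPM in K9M and 38.6 and 66.7 in K36M (3.47 ± 0.34, adjusted p = 0.00884). Clca1, a mucus-processing protein, stood at 809.8 and 1004 CPM in K9M and 42.6 and 76.8 in K36M (3.92 ± 0.36, adjusted p = 0.00772). Fcgbp, a mucus protein that is cross-linked to MUC2, stood at 2082 and 2182 CPM in K9M and 213 and 368 in K36M (2.88 ± 0.32, adjusted p = 0.0103). The 2 K36M mice were both low, and the K9M mice lay between them and WT, where Muc2 was at 978 and 1186 CPM and Fcgbp at 4639.9 and 4852 CPM. Zg16, a lectin of mucus (947 and 1045 CPM in K9M, 485 and 505 in K36M), Tff3, a trefoil peptide (509.5 and 553 against 196 and 294), and the kallikrein gene Klk1 (17.4 and 17.2 against 5.72 and 8.53) differed by less. Summed over the list, the mice had 8462 and 8518 CPM in K9M, 3332 and 3448 in K36M and 13951 and 16910.5 in WT. Without K9M mouse 1516 or 1519, 3 members passed in either case, and without K36M mouse 1553, 14 did.

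Defence genes of the epithelium were mostly higher in K9M where called. Reg3g, an antibacterial lectin, stood at 158 and 186 CPM in K9M and 3.92 and 5.41 in K36M, with 142 and 173 CPM in WT (5.20 ± 0.25, adjusted p = 0.00456). The K36M mice were thus far under the other 4 mice, which overlapped. Pigr, the receptor that carries IgA across the epithelium, stood at 5971 and 6339.9 CPM in K9M and 1737 and 1385 in K36M (1.98 ± 0.24, adjusted p = 0.0111). Ido1, which breaks down tryptophan, stood at 4.53 and 9.43 CPM in K9M and 0.226 and 0.300 in K36M (4.67 ± 0.61, adjusted p = 0.0129), and in WT at 27.9 and 26.5 CPM, above both mutants. In all, 4 of 14 tested genes of the list were called higher in K9M and 1 higher in K36M, at a median of 0.70. The one higher in K36M was Lcn2, an iron-binding defence protein, at 0.206 and 0.284 CPM in K9M and 0.979 and 3.60 in K36M. It rested on 9 counts in K9M and 73 in K36M, and it lost its call without either K9M mouse. Of 14 tested Paneth cell genes 2 were called in each direction, and those higher in K9M were Mptx1 and Lyz1. Mptx1, a pentraxin, stood at 35.1 and 19.2 CPM in K9M and 0.527 and 1.38 in K36M. Lyz1, a lysozyme gene, stood at 240.1 and 204 CPM in K9M and 100.4 and 85.5 in K36M. The lipase-like gene Pnliprp2 was called higher in K36M, at 53.1 and 48.0 CPM in K9M and 989 and 169 in K36M, where mouse 1485 was several times above mouse 1553. Paneth calls numbered 1 and 2 without K9M mouse 1516 or 1519, all higher in K9M, and 8 and 5 without K36M mouse 1485 or 1553. For both Mptx1 and Lyz1 the K9M mice were also above WT, which had 0.828 and 5.01 CPM of Mptx1 and 48.2 and 39.8 CPM of Lyz1.

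MHC class II genes, which present antigen on immune cells and on inflamed epithelium, were called in the opposite direction. Of 8 tested genes, 3 were called higher in K36M and the median was -1.78. Cd74, the invariant chain, stood at 12.2 and 10.3 CPM in K9M and 92.1 and 39.0 in K36M (-2.54 ± 0.44, adjusted p = 0.0217). H2-Ab1, a class II chain, had 10.49 and 11.4 CPM in K9M and 65.5 and 23.2 in K36M (-2.02 ± 0.50, adjusted p = 0.0448). H2-DMb1, which helps to load peptides, stood at 0.257 and 0.568 CPM in K9M and 3.54 and 2.40 in K36M (-2.83 ± 0.59, adjusted p = 0.0305). WT mice had 346 and 108 CPM for Cd74 and 196 and 52.98 CPM for H2-Ab1, with the first above all others and both above the K9M mice. Over the list the levels summed to 225 and 243 CPM in K9M and 455 and 235 in K36M, so the sum overlapped between the groups, unlike the 3 called genes. Ciita, the class II activator, stood at 1.08 and 1.02 CPM in K9M and 0.603 and 1.02 in K36M, with overlapping groups. The 3 calls were lost without either K9M mouse, while 4 and 6 genes passed without K36M mouse 1485 or 1553. With all 4 libraries DESeq2 called 6 and limma-voom 2, and with library size alone edgeR called 6. The list of B and plasma cells had 1 call among 6 tested genes, Ighm (5.76 and 3.58 CPM in K9M, 0.753 and 0.481 in K36M). That of macrophages, dendritic cells and granulocytes had 1 higher in K9M, Cd14 (11.1 and 12.96 against 3.69 and 4.69), and 2 higher in K36M, Csf1r (2.01 and 1.14 against 10.8 and 6.55) and Adgre1 (0.206 and 0.0568 against 1.73 and 0.901). Summed levels of the macrophage list were 39.3 and 42.8 CPM in K9M and 54.99 and 24.0 in K36M, and their part in the class II difference was not tested. Calls of the B cell and macrophage lists were lost without either K9M mouse, and without K36M mouse 1553 they numbered 3 and 9.

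**Figure D2:**
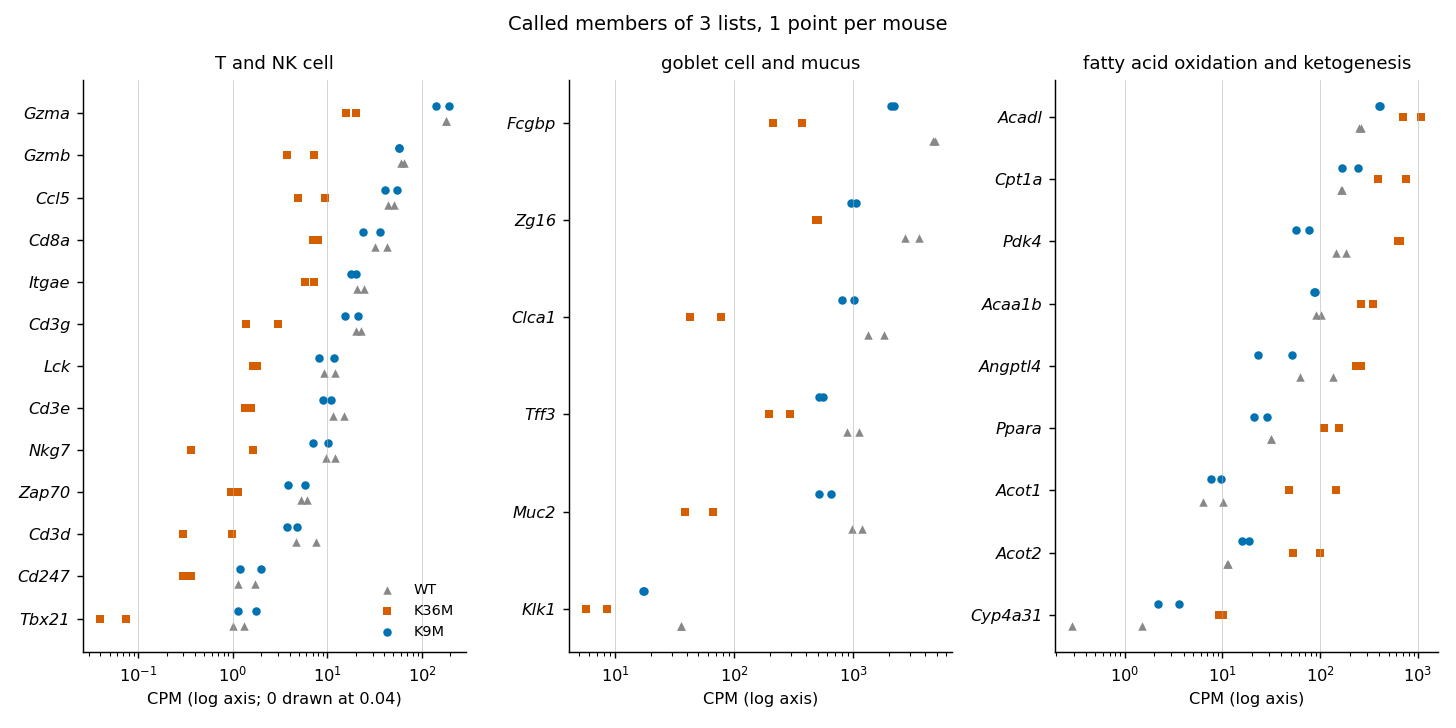
Members of 3 lists that were called, as named on the vertical axis, with the level of each mouse in CPM on a log axis: K9M (blue circles), K36M (orange squares) and WT (grey triangles, not used in the test). In the T and NK cell panel and the goblet cell panel every orange square lies left of the blue circles, for example Gzma at 20.0 and 15.8 CPM against 141 and 193. In the fatty acid oxidation panel every orange square lies right of the blue circles, for example Pdk4 at 661 and 621 CPM against 75.9 and 56.5.

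Genes of fatty acid oxidation and ketone body synthesis had all their calls on the K36M side. Of 23 tested genes, 10 were called higher in K36M (background 11.0%), and the median was -0.73. Pdk4, a kinase that turns glucose oxidation down, stood at 75.9 and 56.5 CPM in K9M and 661 and 621 in K36M (-3.27 ± 0.23, adjusted p = 0.00543). Ppara, the nuclear receptor that drives many of these genes, stood at 21.0 and 28.4 CPM in K9M and 154 and 109 in K36M (-2.41 ± 0.26, adjusted p = 0.0102). Both K36M mice were above all other mice for these genes, and the K9M mice were under WT, which had 145 and 183 CPM of Pdk4 and 31.3 and 31.5 CPM of Ppara. Among the other called members were Cpt1a, which brings fatty acids into mitochondria (167 and 243 CPM in K9M, 393 and 747 in K36M), the dehydrogenase gene Acadl (395 and 410.02 against 699 and 1074) and Angptl4, a secreted inhibitor of lipoprotein lipase (51.6 and 23.0 against 234 and 262). Acot1 and Acot2 are near copies of each other, and their values are uncertain because reads may have been lost or shared between them. Over the list the levels summed to 5225 and 5256 CPM in K9M and 8108 and 9432 in K36M. Without K9M mouse 1516 or 1519, 5 members passed in either case, at medians of -0.74 and -0.67.

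Digestive enzymes of the enterocyte brush border had 2 of 22 tested genes called (9.09%), both higher in K9M, at a median of 0.52. Of all genes 10.2% were called higher in K9M, so the count was no more than the usual share. Lct, the lactase of the proximal small intestine, stood at 4072 and 3386 CPM in K9M and 765 and 521 in K36M (2.54 ± 0.29, adjusted p = 0.0103). Mgam, a maltase, stood at 3218 and 4465 CPM in K9M and 1885 and 1359.8 in K36M (1.24 ± 0.29, adjusted p = 0.0387). The sucrase gene Sis had 6148 and 5956 CPM in K9M and 3540.5 and 3372 in K36M and missed the threshold (0.81 ± 0.21, adjusted p = 0.0506). DESeq2 called 9 genes of this list higher in K9M and limma-voom 4, so the number depends on the model. Without K9M mouse 1516 or 1519, 1 passed in either case, and without K36M mouse 1485 or 1553, 9 and 4 did. A pair of abundant genes outside the lists, singled out with their values seen, were Akp3, an alkaline phosphatase with a near copy in Alpi (3133 and 10411 CPM in K9M and 438 and 457 in K36M), and Asah2, the neutral ceramidase (1453 and 1152 CPM in K9M and 144 and 38.4 in K36M), both called higher in K9M (3.84 ± 0.66, adjusted p = 0.0217 for Asah2).

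Among 22 nutrient transporters 4 were called higher in K9M and 1 higher in K36M, with a median of 0.055 that turned to -0.05 with library size alone. The share called was 22.7%, close to the 21.2% of all genes. Slc3a1, of cystine uptake, stood at 217 and 224 CPM in K9M and 87.0 and 91.4 in K36M (1.30 ± 0.16, adjusted p = 0.0112). Slc26a6, an anion exchanger, had 689 and 734 CPM in K9M and 352 and 269 in K36M. Slc46a1, the intestinal folate transporter, had 767 and 871 CPM in K9M and 420.4 and 275 in K36M. The sulfate transporter gene Slc13a1 was among the largest differences, at 227 and 473 CPM in K9M and 8.66 and 3.84 in K36M (5.82 ± 0.59, adjusted p = 0.00897), with WT at 206 and 475 CPM. The transporter calls numbered 1 without K9M mouse 1516, were lost without K9M mouse 1519, and were 8 and 11 without K36M mouse 1485 or 1553. Lipid absorption genes had calls in both directions. Cd36, a fatty acid receptor, stood at 207 and 108 CPM in K9M and 1653 and 649 in K36M (-2.87 ± 0.56, adjusted p = 0.0274). Dgat2, which makes triglyceride, had 701 and 458 CPM in K9M and 1789.7 and 1678 in K36M (-1.58 ± 0.27, adjusted p = 0.0212). Both were higher in K36M. Lrat, which esterifies retinol, stood at 61.1 and 35.1 CPM in K9M and 9.57 and 2.76 in K36M and was called higher in K9M (2.98 ± 0.62, adjusted p = 0.0313). In all 2 of 23 were called higher in K9M and 4 higher in K36M, and 2 and 1 passed without K9M mouse 1516 or 1519, all higher in K36M. Scd1, the fatty acid desaturase, was singled out with its values seen. It stood at 2.11 and 0.568 CPM in K9M and 1283 and 686 in K36M, with WT at 2.87 and 1.35 CPM, with a difference of -9.50 ± 0.75, adjusted p = 0.00627.

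Markers of position along the gut did not all move one way. Of 13 genes of the proximal small intestine, 4 were called higher in K9M, among them Lct and Onecut2, a duodenal transcription factor (243 and 397 CPM in K9M and 106 and 125 in K36M). Another 1 was higher in K36M, and the list median was 0.51. Calls numbered 3 and 1 without K9M mouse 1516 or 1519. Of 9 tested ileal genes edgeR called 0, with 1 at an unadjusted p under 0.05, 1 by DESeq2 and 0 by limma-voom. The mucin gene Muc3 stood at 2302 and 2515 CPM in K9M and 2674 and 1454 in K36M. The peptidase gene Enpep stood at 547 and 452 CPM in K9M and 919 and 487 in K36M, and the groups overlapped for both. Of 12 tested colon genes 4 were higher in K9M, such as the water channel Aqp8 (185 and 143 CPM in K9M and 26.4 and 24.7 in K36M, 2.68 ± 0.20, adjusted p = 0.00598). Another 3 were higher in K36M, such as the sodium channel subunit Scnn1a (4.83 and 3.69 CPM in K9M and 96.5 and 44.9 in K36M, -4.05 ± 0.44, adjusted p = 0.0103). The hindgut homeobox genes Hoxb13, Hoxd13 and Hoxd10 of that list were too low to be tested. Colon calls numbered 3 without K9M mouse 1516 or 1519 in either case, 2 of them higher in K9M, and with library size alone 3 were higher in K9M and 4 higher in K36M.

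Lists of hormone-producing, tuft and stem cells had 3 of 18, 2 of 17 and 5 of 22 tested genes called, against 21.2% of all genes. Gcg, which encodes glucagon and GLP-1, had no count in K36M and 4.06 and 5.06 CPM in K9M, at least 45.2-fold higher by a floor of 3 counts over the group (adjusted p = 0.0113). By contrast Chga, a granule protein of endocrine cells (64.7 and 54.4 CPM in K9M and 165 and 126 in K36M), and Cpe, a prohormone-processing enzyme (28.1 and 20.3 CPM in K9M and 109 and 58.0 in K36M), were called higher in K36M. These were the 3 calls among 18 tested enteroendocrine genes, of which 1 passed without either K9M mouse and 5 and 6 without K36M mouse 1485 or 1553. Of 17 tuft cell genes, Il13ra1, an interleukin receptor chain, was called higher in K9M (288 and 300.2 CPM in K9M and 113 and 106 in K36M). Ptgs1, a prostaglandin synthase, was higher in K36M (4.06 and 3.58 CPM in K9M and 104 and 38.7 in K36M, -4.22 ± 0.54, adjusted p = 0.0125). Of 22 stem cell genes 1 was called higher in K9M and 4 higher in K36M, at a median of -0.29. Ephb2, a receptor that positions crypt cells, stood at 7.77 and 7.84 CPM in K9M and 44.1 and 56.3 in K36M (-2.68 ± 0.21, adjusted p = 0.00615). Lgr5, the stem cell receptor, stood at 0.463 and 0.909 CPM in K9M and 3.01 and 7.33 in K36M (-2.91 ± 0.65, adjusted p = 0.035). Igfbp4, a binder of insulin-like growth factors (1.13 and 1.82 CPM in K9M and 6.55 and 10.9 in K36M), and the chloride cotransporter gene Slc12a2 (10.49 and 16.6 CPM in K9M and 43.8 and 99.7 in K36M) were also higher in K36M. Hopx, a marker of reserve stem cells, was higher in K9M (46.3 and 51.5 CPM in K9M and 30.9 and 26.6 in K36M). Olfm4, another stem cell marker, had overlapping groups (16.6 and 39.0 CPM in K9M and 9.72 and 45.3 in K36M). The tuft cell calls numbered 2 without either K9M mouse and 10 and 4 without K36M mouse 1485 or 1553. The stem cell list had 1 call without either K9M mouse, and without K36M mouse 1553 the median was 0.28.

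The medians of proliferation genes changed sign with 1 K36M mouse. Rrm2, a subunit of ribonucleotide reductase, stood at 5.35 and 8.69 CPM in K9M and 345 and 188 in K36M, with WT at 11.0 and 4.47 CPM (-5.25 ± 0.44, adjusted p = 0.00689). Mcm10, of the replication machinery, was also called higher in K36M (14.97 and 13.6 CPM in K9M and 50.5 and 41.8 in K36M), as was Mcm2, of the replicative helicase (9.51 and 5.06 CPM in K9M and 65.4 and 32.4 in K36M). These were the 3 calls in that direction among 27 replication genes, beside 1 higher in K9M, and the list median was -0.94. The shares called were 14.8% of replication genes and 7.14% of mitotic genes, both under the 21.2% of all genes. Of 28 mitotic genes 2 were called, Nusap1 (2.06 and 3.75 CPM in K9M and 11.4 and 11.4 in K36M) and Cenpe (3.14 and 5.57 CPM in K9M and 12.4 and 26.1 in K36M), both higher in K36M, at a median of -1.21. The sums over mitotic genes were 99.6 and 142 CPM in K9M, 99.7 and 435 in K36M and 449 and 164 in WT, so a single mouse of K36M and of WT was high and the groups overlapped. Without K36M mouse 1553 the medians turned to 0.15 for replication and 0.72 for mitosis, and without K36M mouse 1485, 16 replication and 25 mitotic genes were higher in K36M. The mitotic calls were lost without either K9M mouse, and 3 and 1 replication genes passed without K9M mouse 1516 or 1519. Rrm2 was higher in K36M in all 4 cases.

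Markers of the cells around the epithelium had calls on both sides, most of them at low levels. Of 9 tested fibroblast genes 3 were called higher in K36M, at a median of -2.80. They were the receptor gene Pdgfra (0.257 and 0.114 CPM in K9M and 16.9 and 4.63 in K36M) and the collagen genes Col6a1 (0.411 and 0.398 CPM in K9M and 13.9 and 2.70 in K36M) and Col6a2 (0.257 and 0.682 CPM in K9M and 10.2 and 2.40 in K36M). In each, K36M mouse 1485 was well above mouse 1553. The sum of the list did not follow the median, at 258 and 259 CPM in K9M and 246 and 122 in K36M, where Fbln1, a matrix protein, gave most of the listed counts (253 and 253 CPM in K9M and 171 and 105 in K36M). Among 9 endothelial genes Tek (23.5 and 22.3 CPM in K9M and 10.8 and 7.75 in K36M) and Lyve1 (9.67 and 6.76 CPM in K9M and 3.54 and 2.94 in K36M) were called higher in K9M. Another 3 were higher in K36M, with Flt4 without a count in K9M and at least 16.5-fold higher in K36M. The endothelial median was -1.94, with 7 genes below 0 and 2 above. Kdr, too low to be tested, had 5 and 8 counts in K9M and 32 and 9 in K36M. Of 5 smooth muscle genes, Mylk, a myosin kinase that other cells also make (452 and 374 CPM in K9M and 136 and 148 in K36M), was called higher in K9M. Des, desmin, was higher in K36M (0.257 and 0.170 CPM in K9M and 4.29 and 2.52 in K36M). The smooth muscle median was -1.07, with 4 genes below 0 and 1 above. The untested genes of that list were highest among the mutants in K36M mouse 1485, except Myocd with 1 count in K9M. Acta2, for example, had 11 and 6 counts in K9M and 54 and 9 in K36M. Ret, a neurotrophic factor receptor, stood at 0.926 and 1.19 CPM in K9M and 47.1 and 39.4 in K36M (-5.35 ± 0.26, adjusted p = 0.00456). S100b, a calcium-binding protein of glia, stood at 0.566 and 0.341 CPM in K9M and 6.55 and 7.75 in K36M (-3.95 ± 0.44, adjusted p = 0.0103). They were the 2 calls among 4 tested genes of enteric neurons and glia. Of the defining genes, Vip had 0 counts in all 4 libraries and Sox10 had 1 count, in K36M mouse 1485. That list summed to 4.17 and 4.77 CPM in K9M and 60.1 and 51.4 in K36M, and its 2 calls passed in every leave-one-out fit. The acinar pancreas list had 1 call among 2 tested genes, Cela1 (4.27 and 6.48 CPM in K9M and 15.2 and 12.01 in K36M), with the trypsinogen gene Prss2 at 2 counts in K36M mouse 1485 and none elsewhere. Of 16 testis germ cell genes 1 was called, Smcp (1.13 and 1.42 CPM in K9M and 4.07 and 6.97 in K36M). Of 3 red cell genes 1 was called, Car2, a carbonic anhydrase that enterocytes also make (82.3 and 122 CPM in K9M and 10.2 and 13.3 in K36M). The globin genes Hba-a1 and Hbb-bt were too low to be tested and were highest in K36M mouse 1485. Hba-a1 had 12 and 0 counts in K9M and 39 and 2 in K36M, and Hbb-bt 1 and 0 against 35 and 1. Epb42, also untested, was highest in K36M mouse 1553 (3 and 7 counts against 4 and 12). The red cell list median of 1.63 changed sign in 7 of 16 other settings. The endothelial, pancreas and germ cell calls were lost without either K9M mouse, and 1 fibroblast and 1 smooth muscle gene passed. Without K36M mouse 1553 there were 9 fibroblast, 8 endothelial and 10 smooth muscle calls, over more genes tested.

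Of 21 tested genes of the unfolded protein response, 7 were called higher in K9M and 2 higher in K36M, at a median of 0.47. Hspa5, the chaperone BiP, stood at 631 and 593 CPM in K9M and 286 and 313 in K36M (1.03 ± 0.18, adjusted p = 0.0212). The chaperone genes Calr (636 and 737 CPM in K9M, 239 and 365 in K36M) and Pdia4 (53.4 and 56.6 against 18.6 and 28.3) were among the other 6. For all 3 the K36M mice lay under WT. The 2 genes higher in K36M were Herpud1, of protein degradation at the reticulum (133 and 121 CPM in K9M and 596 and 435 in K36M, -2.02 ± 0.23, adjusted p = 0.0103), and Trib3. The latter, a pseudokinase, stood at 11.8 and 8.92 CPM in K9M and 42.7 and 40.2 in K36M (-1.997 ± 0.22, adjusted p = 0.0101). The 7 calls higher in K9M were lost without either K9M mouse, while 2 genes higher in K36M passed. With all 4 libraries DESeq2 called 9 higher in K9M and limma-voom 7, and with library size alone edgeR called 3. Among 11 heat shock genes 1 was called, Hsph1, higher in K9M (15.1 and 38.6 CPM in K9M and 3.54 and 6.85 in K36M), and it passed without K9M mouse 1516 only.

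Of 33 genes of detoxifying enzymes 7 were called higher in K9M and 2 higher in K36M, and the other 24 were not called, at a median of 0.503. Gstm1, a glutathione transferase, stood at 525 and 882 CPM in K9M and 80.1 and 127 in K36M, with WT at 193 and 331 CPM (2.76 ± 0.37, adjusted p = 0.0136). Gstp1, another transferase, stood at 157 and 187 CPM in K9M and 73.7 and 78.3 in K36M (1.18 ± 0.17, adjusted p = 0.016). Cyp1a1, the aryl hydrocarbon receptor's main target, stood at 152 and 94.1 CPM in K9M and 12.4 and 27.5 in K36M (2.62 ± 0.45, adjusted p = 0.0213), above WT (19.04 and 29.0 CPM) in both K9M mice. Members of these enzyme families are similar in sequence, and shared reads make single values uncertain. Without K9M mouse 1516 or 1519, 3 and 2 passed. Of 24 cholesterol genes 4 were called higher in K9M and 1 higher in K36M, and 2 in each direction with library size alone. The share called was 20.8%, and 27.3% for the detoxifying enzymes, against 21.2% of all genes. Sc5d, of the last steps of synthesis, stood at 228 and 239 CPM in K9M and 86.2 and 81.5 in K36M. The list had a median of -0.06, with 1 call without either K9M mouse and 11 and 12 without K36M mouse 1485 or 1553. Among 37 genes of mitochondrial complex I edgeR called 0, with 7 at an unadjusted p under 0.05 (3 higher in K9M), 1 by DESeq2 and 0 by limma-voom, and the median was -0.009.

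Interferon and stress lists gave calls in both directions. The shares called were 25.8% for interferon, 21.7% for p53 targets and 20% for fetal-like epithelium. Immediate early genes and Wnt and Notch genes each had 9.52%, and of all genes 21.2% were called. Of 31 interferon-stimulated and MHC class I genes 3 were called higher in K9M and 5 higher in K36M, at a median of -0.49 that turned to 0.70 without K36M mouse 1553. Its calls were lost without either K9M mouse, and numbered 4 higher in K9M and 20 higher in K36M without K36M mouse 1485, and 14 and 5 without K36M mouse 1553. With library size alone they numbered 1 and 5. Usp18, which damps interferon signalling, stood at 11.16 and 7.96 CPM in K9M and 39.0 and 101.4 in K36M (-2.88 ± 0.50, adjusted p = 0.022). The signalling genes Irf9 (80.2 and 78.1 CPM in K9M and 154 and 143 in K36M) and Stat2 (52.5 and 53.9 CPM in K9M and 85.3 and 101.3 in K36M) were called higher in K36M too. Of 23 p53 targets 3 were higher in K9M, including the death receptor genes Fas (52.9 and 49.3 CPM in K9M and 23.3 and 15.4 in K36M) and Tnfrsf10b (12.7 and 11.7 CPM in K9M and 5.88 and 4.75 in K36M). Another 2 were higher in K36M, including the cell cycle inhibitor gene Cdkn1a (294 and 278 CPM in K9M and 609 and 543 in K36M, -1.01 ± 0.18, adjusted p = 0.0223). Of 15 genes of fetal-like, regenerating epithelium 1 was higher in K9M, Spp1, with 36 counts in K9M and 3 in K36M. Another 2 were higher in K36M, the matrix signalling gene Ccn1 (2.01 and 1.19 CPM in K9M and 12.9 and 8.53 in K36M) and Anxa3 (3.45 and 4.49 CPM in K9M and 13.6 and 13.2 in K36M). Of 21 immediate early genes 2 were called, Ccn1 again and the phosphatase gene Dusp1 (13.3 and 9.60 CPM in K9M and 53.03 and 87.0 in K36M, -2.61 ± 0.32, adjusted p = 0.0118). Of 21 Wnt and Notch genes the receptor Fzd7 was called higher in K9M (12.4 and 16.7 CPM in K9M and 1.05 and 2.34 in K36M, 3.07 ± 0.45, adjusted p = 0.016). The ligand Jag2 was higher in K36M (0.771 and 1.08 CPM in K9M and 5.65 and 4.33 in K36M). The p53 calls were lost without either K9M mouse, and the fetal-like, immediate early and Wnt and Notch lists had at most 2 calls each then. Fzd8, a further Wnt receptor named for its size of difference, had no count in K9M and 8.74 and 6.07 CPM in K36M, with WT at 2.53 and 2.91 CPM. It was at least 89.5-fold higher in K36M (adjusted p = 0.0101).

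Of the named enzymes that write methylation at the 2 lysines, only Suv39h1 was called for its own mRNA. Setdb1 stood at 20.4 and 25.7 CPM in K9M and 26.4 and 26.1 in K36M. Ehmt1 stood at 32.4 and 30.4 CPM in K9M and 26.8 and 25.3 in K36M. Ehmt2 stood at 113 and 119 CPM in K9M and 179 and 119 in K36M, and none of the 3 was called. Suv39h1 was the exception among the lysine 9 enzymes, at 5.19 and 7.16 CPM in K9M and 12.9 and 21.0 in K36M, called higher in K36M (-1.46 ± 0.34, adjusted p = 0.0392). Among the lysine 36 enzymes Nsd1 stood at 163 and 144 CPM in K9M and 233 and 243 in K36M and lay at the threshold (-0.64 ± 0.17, adjusted p = 0.0501). Nsd2 stood at 35.6 and 28.1 CPM in K9M and 27.4 and 26.9 in K36M and Setd2 at 65.0 and 61.0 CPM in K9M and 74.6 and 91.9 in K36M, neither of them called. Over the whole list for lysine 9, 4 of 29 genes were higher in K9M and 3 higher in K36M, with 2 and 3 by library size alone. The share called was 24.1%, near the 21.2% of all genes. Prdm16, a zinc finger regulator, stood at 87.7 and 130.3 CPM in K9M and 24.7 and 29.4 in K36M (2.01 ± 0.25, adjusted p = 0.0121). Fam208a, of the HUSH silencing complex, had 33.7 and 37.2 CPM in K9M and 16.2 and 12.9 in K36M. The demethylase gene Kdm3a, higher in K36M, had 79.5 and 72.4 CPM in K9M and 158 and 135 in K36M. Over the list for lysine 36, 1 of 27 was higher in each direction, with 7.41% called, under the share of all genes. Setd3 was higher in K9M (112 and 108 CPM in K9M and 67.9 and 59.7 in K36M). The demethylase gene Kdm4a was higher in K36M (38.5 and 41.6 CPM in K9M and 66.6 and 75.1 in K36M). Medians were -0.09 and -0.08, against -0.02 over all genes. Without either K9M mouse 1 gene of the lysine 9 list passed and the calls of the lysine 36 list were lost, while 11 and 10 of the latter passed without K36M mouse 1485 or 1553.

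Polycomb genes had calls in both directions, with 5 of 27 higher in K9M and 4 higher in K36M (33.3% called, against 21.2% of all genes). With library size alone the counts were 1 and 6, which turns the balance to the K36M side. Among those higher in K36M were genes of CBX proteins, which bind the Polycomb mark. Cbx7 stood at 4.37 and 8.92 CPM in K9M and 96.6 and 36.2 in K36M (-3.32 ± 0.60, adjusted p = 0.0231). Cbx6 (0.874 and 2.96 CPM in K9M and 11.6 and 13.9 in K36M) was higher in K36M too, and so was Cbx2 (5.30 and 5.11 CPM in K9M and 24.3 and 11.4 in K36M). The K36M mice were above the other mutant and above WT for these, though mouse 1485 had well over the level of mouse 1553 for Cbx7. The 5 higher in K9M included Ezh2, the methyltransferase of the complex (20.0 and 23.0 CPM in K9M and 6.33 and 10.2 in K36M, 1.37 ± 0.30, adjusted p = 0.033). Its partner gene Jarid2 was another (38.1 and 44.0 CPM in K9M and 19.9 and 20.0 in K36M, 1.04 ± 0.18, adjusted p = 0.0209). These calls were lost without K9M mouse 1516, 2 genes higher in K36M passed without K9M mouse 1519, and 15 and 16 passed without K36M mouse 1485 or 1553. Developmental genes known as Polycomb targets were mostly silent: 9 of 32 were tested. Hoxb9 had no count in K9M and 0.904 and 4.69 CPM in K36M, at least 37.1-fold higher (adjusted p = 0.0382). Tbx3 (323 and 313 CPM in K9M and 132 and 93.0 in K36M) and the cell cycle inhibitor gene Cdkn2b (67.6 and 82.6 CPM in K9M and 19.6 and 36.1 in K36M) were called higher in K9M. The calls of Hoxb9 and Cdkn2b were lost without either K9M mouse and that of Tbx3 without mouse 1516, and without K36M mouse 1553 Hoxb9 fell under the filter on low counts. Of 23 imprinted genes 4 were higher in K9M and 6 higher in K36M, and with library size alone 2 and 6. Igf2, a growth factor, stood at 0.309 and 0.398 CPM in K9M and 13.1 and 4.205 in K36M (-4.59 ± 0.73, adjusted p = 0.0183). Dlk1, a Notch-related ligand, had 0.678 and 1.92 CPM in K36M and no count in K9M. The noncoding RNA gene Meg3 stood at 0.360 and 0.170 CPM in K9M and 3.01 and 2.76 in K36M, and all 3 were higher in K36M. Ddc, which makes serotonin and dopamine, stood at 586 and 652 CPM in K9M and 93.6 and 61.1 in K36M (3.001 ± 0.27, adjusted p = 0.00758). Th, the enzyme a step before it in dopamine synthesis, had 2 counts in K9M and 4.67 and 3.84 CPM in K36M, a ratio of K36M to K9M of 78.0 (counting interval 21.1 to 651). Mbd1 (29.4 and 34.2 CPM in K9M and 51.6 and 49.1 in K36M) and Dnmt1 (8.95 and 9.21 CPM in K9M and 15.6 and 28.2 in K36M), higher in K36M, were the calls among 15 DNA methylation genes. Of 14 listed histone genes 1 was called, the H2B gene Hist1h2bc (172 and 161 CPM in K9M and 78.2 and 69.6 in K36M), higher in K9M. The shares called were 33.3% of tested developmental targets and 43.5% of imprinted genes, above the 21.2% of all genes. They were 13.3% of DNA methylation genes and 7.14% of histone genes, under it. Imprinted calls numbered 2 and 3 without K9M mouse 1516 or 1519, and the DNA methylation and histone calls were lost then.

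**Figure D3:**
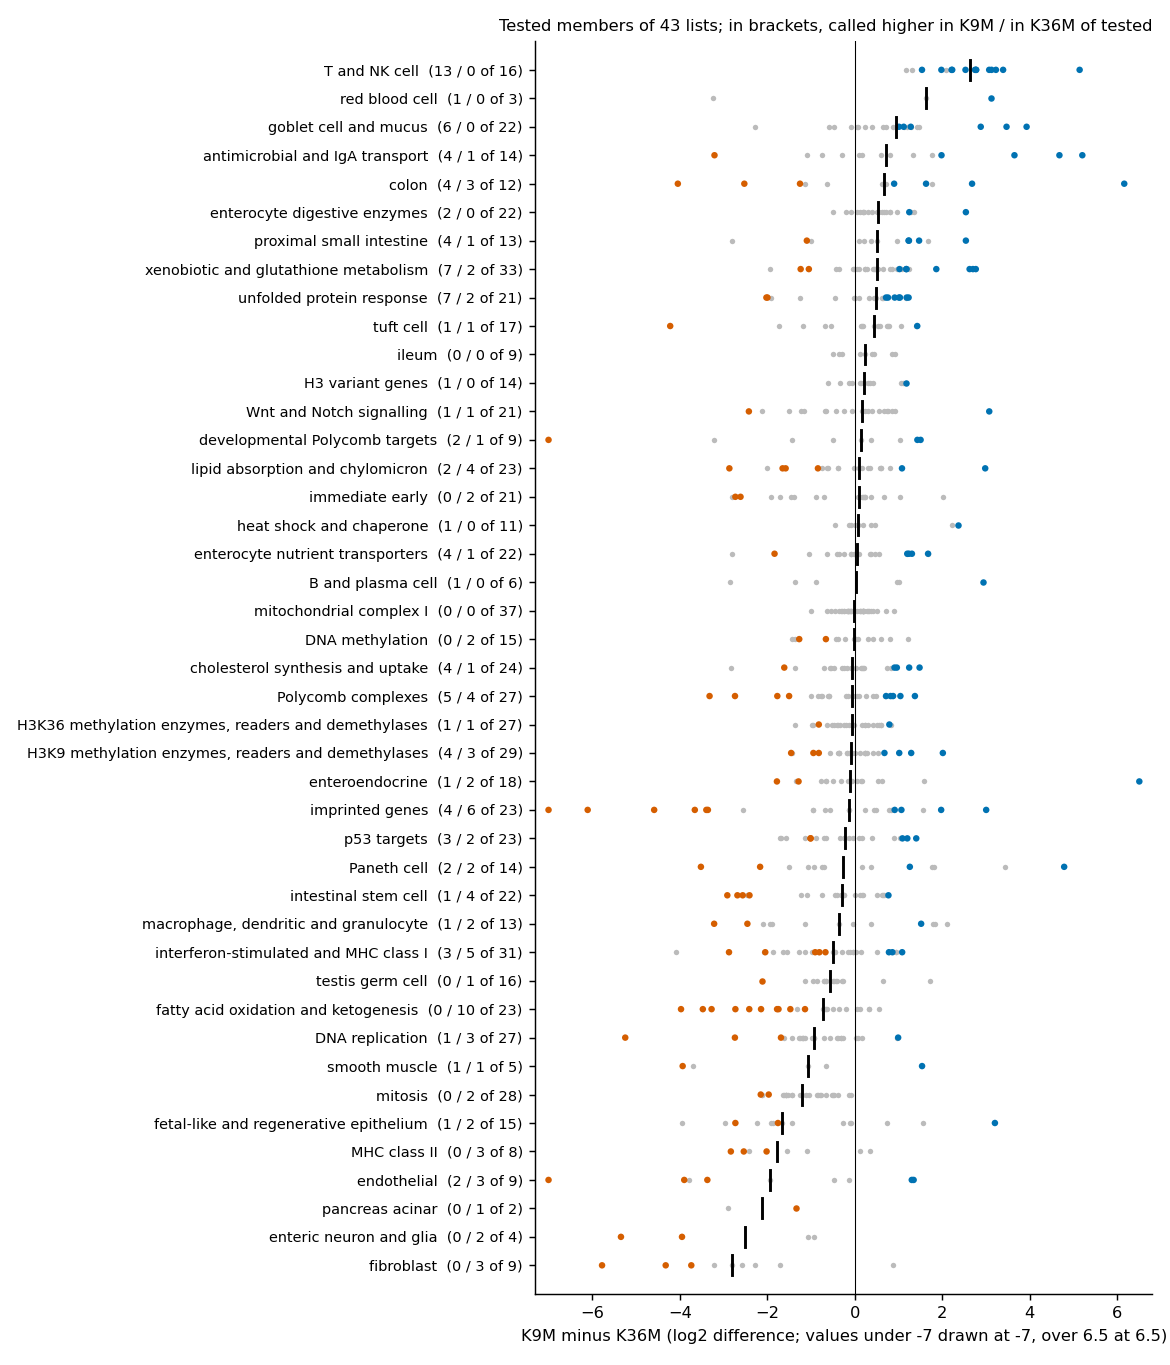
Each row is 1 of 43 gene lists, ordered by its median K9M minus K36M difference (black bar, log2). Points are tested members, blue where called higher in K9M, orange where called higher in K36M and grey where not called, and the brackets give the called counts of those tested. The T and NK cell list is at the top with a median of 2.64 and the fibroblast list at the bottom with -2.80, where the points are few and mostly grey.

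The largest differences belonged to genes of varied roles. Zar1, an egg factor gene, had no count in K36M or WT and 10.3 and 6.02 CPM in K9M, at least 82.7-fold higher (adjusted p = 0.0109). Eno1b, which resembles its parent enolase gene Eno1 closely, stood at 126 and 101.2 CPM in K9M and 1.43 and 1.92 in K36M, with WT at 0.974 and 1.62 CPM (6.06 ± 0.26, adjusted p = 0.00456). Its value is uncertain, since reads of the copy cannot be told from those of its parent. Wdpcp, of cilium assembly, stood at 88.9 and 68.5 CPM in K9M and 1.73 and 0.841 in K36M, with WT at 9.15 and 8.93 CPM (5.96 ± 0.38, adjusted p = 0.00478). Those 3 genes were above WT in both K9M mice. Armc2, of sperm flagella, had 2 counts in K36M and 7.25 and 20.9 CPM in K9M, a ratio of K9M to K36M of 205 (counting interval 56.5 to 1699). Slc37a2, a sugar phosphate transporter, was at 23.0 and 287 CPM in K9M and 1.51 and 2.76 in K36M, with the K9M mice far apart. Hnf4aos is antisense to Hnf4a, and strand use in the counting is not known (10.4 and 3.86 CPM in K9M and 0 and 0.240 in K36M). Singled out with their values seen, Dio1, a thyroid hormone deiodinase, was also called higher in K9M (142 and 207 CPM in K9M and 6.03 and 6.79 in K36M, WT 105 and 133). So was the nuclease gene Dnase1 (113 and 86.0 CPM in K9M and 4.07 and 4.93 in K36M, WT 320.1 and 252). For Dio1 and Dnase1 the K36M mice were the lowest, and for Dnase1 the K9M mice were under WT too.

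On the K36M side, Adrb3, the adrenergic receptor of fat cells, had no count in K9M and 24.6 and 12.4 CPM in K36M, at least 220.3-fold higher (adjusted p = 0.00981). Wdr72, known for tooth enamel formation, had 26.4 and 28.5 CPM in K36M against no count in K9M, at least 340.0-fold higher, but the WT mice stood at 0.0487 and 33.8 CPM, so mice of the same genotype were also far apart. Sema3e, a guidance cue, was at 7.61 and 9.13 CPM in K36M and had no count in K9M or WT. Defb1, a defensin (3.01 and 17.3 CPM), Trim67 (13.4 and 4.99) and Cyp21a1, the steroid 21-hydroxylase (11.98 and 2.46), likewise had no count in K9M and differed several-fold between the K36M mice. Hpn, the protease hepsin, had 1 count in K9M and 38.3 and 27.3 CPM in K36M, a ratio of K36M to K9M of 1193 (counting interval 214 to 47181, which covers counting error only). Among more abundant genes, singled out with their values seen, the protease inhibitor gene Serpinb9b stood at 0.514 and 0.170 CPM in K9M and 212 and 183 in K36M. The secreted superoxide dismutase gene Sod3 stood at 0.154 and 0.284 CPM in K9M and 55.1 and 68.2 in K36M, and the lactate dehydrogenase gene Ldhb at 0.257 and 0.114 CPM in K9M and 36.8 and 49.0 in K36M. The plasminogen activator gene Plau had 0.103 and 0.227 CPM in K9M and 33.6 and 45.2 in K36M, and the lipoprotein receptor gene Vldlr had 0.874 and 0.909 CPM in K9M and 110.4 and 61.3 in K36M. WT levels of those 5 were between 0.135 and 3.52 CPM, so both K36M mice stood far above all others. Serpinb9b and Cyp21a1 have near copies in the genome and are uncertain for that reason.

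Start regions of 4 described genes are shown to set the 2 sides beside each other, with each CG pair in capitals. The 300 bases run from 250 before to 50 after the RefSeq start, on GRCm38.p6, as the gene's strand reads them, and the choice was made with the values known. Reg3g (chr6:78468825-78469124 on the minus strand) and Muc2 (chr7:141690090-141690389 on the plus strand) were higher in K9M, and Rrm2 (chr12:24708004-24708303 on the plus strand) and Pdk4 (chr6:5496229-5496528 on the minus strand) higher in K36M.
Reg3g: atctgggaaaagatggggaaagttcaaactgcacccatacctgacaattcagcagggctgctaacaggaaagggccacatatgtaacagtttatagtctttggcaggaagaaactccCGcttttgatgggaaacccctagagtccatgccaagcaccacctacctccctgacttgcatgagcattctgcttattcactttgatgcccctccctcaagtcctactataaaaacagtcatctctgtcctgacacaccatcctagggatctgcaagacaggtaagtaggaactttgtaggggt
Muc2: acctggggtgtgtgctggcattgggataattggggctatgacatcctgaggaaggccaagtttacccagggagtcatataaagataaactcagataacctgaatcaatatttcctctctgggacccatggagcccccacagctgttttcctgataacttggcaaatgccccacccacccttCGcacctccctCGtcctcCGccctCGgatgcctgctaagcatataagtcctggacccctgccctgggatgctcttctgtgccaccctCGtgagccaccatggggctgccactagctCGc
Rrm2: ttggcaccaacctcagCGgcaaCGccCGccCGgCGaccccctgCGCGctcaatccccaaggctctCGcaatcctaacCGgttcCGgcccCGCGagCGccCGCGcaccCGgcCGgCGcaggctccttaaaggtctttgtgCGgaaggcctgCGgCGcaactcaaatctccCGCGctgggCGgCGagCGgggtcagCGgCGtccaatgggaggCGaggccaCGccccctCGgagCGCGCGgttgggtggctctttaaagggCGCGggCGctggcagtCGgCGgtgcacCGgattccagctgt
Pdk4: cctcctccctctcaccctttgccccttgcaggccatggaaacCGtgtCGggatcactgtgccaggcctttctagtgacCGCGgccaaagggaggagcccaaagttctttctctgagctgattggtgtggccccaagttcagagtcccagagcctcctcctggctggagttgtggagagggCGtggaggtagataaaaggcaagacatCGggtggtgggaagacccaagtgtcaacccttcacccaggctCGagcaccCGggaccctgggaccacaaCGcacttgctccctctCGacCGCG
They hold 1, 6, 40 and 12 CG pairs. The letters TATAAA, searched on both strands, occur in the windows of Reg3g and Muc2 and in 7.39% of the 10156 tested genes that have a window in the table. A window with fewer than 5 CG pairs was found for 10.01% of those genes, for 14.3% of genes called higher in K9M (152 of 1065) and for 12.5% of those called higher in K36M (137 of 1096). At 16-fold or more the shares were 45.7% (16 of 35) for K9M and 19.8% (44 of 222) for K36M. Over all called genes the contrast of the 4 windows was not seen. The median was 19 CG pairs on both sides. TATAAA was in 7.42% of windows of genes higher in K9M and 8.76% of those higher in K36M. At 16-fold or more the medians were 7 for K9M and 14 for K36M, and the TATAAA shares 17.1% and 11.7%. These are descriptions, not matched for expression level and without a test.

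Testes of the same 4 mice were compared to ask whether the difference between the mutants was the same in another tissue. There 6786 of 18686 genes were called (36.3%), and in Lin-, cKit+ bone marrow cells of 4 other mutant mice 8356 of 14208 (58.8%). Of the 1387 genes higher in K9M intestine, 1222 were tested in testes, where 226 were called in the same direction (18.5%) and 268 in the opposite one (21.9%). Of the 1499 genes higher in K36M intestine, 1337 were tested in testes, with 392 in the same direction (29.3%) and 130 opposite (9.72%). In marrow, 543 of 1152 tested genes higher in K9M intestine were called in the same direction (47.1%) and 211 in the opposite one (18.3%), and of 1113 genes higher in K36M intestine 427 (38.4%) and 313 (28.1%). The shares in a single direction stand against calls in that direction over all genes. Of all 14208 marrow genes, 4189 were called higher in K9M and 4167 higher in K36M. Of all 18686 testes genes, 3137 were called higher in K9M and 3649 higher in K36M. An interaction fit over the 8 libraries called 3541 of 19775 genes (17.9%) as different between the tissues, and 2575 with the mouse as a block. Without intestine K9M mouse 1516 or 1519 there were 1397 and 1377. Of the 2886 genes called in intestine 1607 differed from testes, and 1307 did so with the block too.

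Single genes differed in both ways. Rrm2 was 0.97 ± 0.23 in testes, called higher in K9M there, against -5.25 ± 0.44 in intestine, a difference between tissues of -6.13 ± 0.49. Stk32a, a kinase, had 3 counts in K9M intestine and 17.0 and 29.8 CPM in K36M, and in testes it was 2.88 ± 0.61, higher in K9M. Car2 (-1.64 ± 0.24 in testes), Aqp8 (-1.08 ± 0.24) and Fas (-1.88 ± 0.35) were called higher in K36M testes and higher in K9M intestine. For Muc2 the testes value was -0.91 ± 0.34 without a call, and the difference between tissues was 4.46 ± 0.51. Lct had the same sign in both, 1.69 ± 0.30 in testes, and the tissues were not shown to differ (0.94 ± 0.43, adjusted p = 0.168 by edgeR's quasi-likelihood test). Pdk4, Dusp1, Hpn and Ptgs1 were called higher in K36M in both tissues. Of the named genes 111 had a difference in both tissues, of which 17 were called in the same direction in both and 15 in opposite directions. They were named largely by their intestine values, so these counts describe the named genes only.

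**Figure D4:**
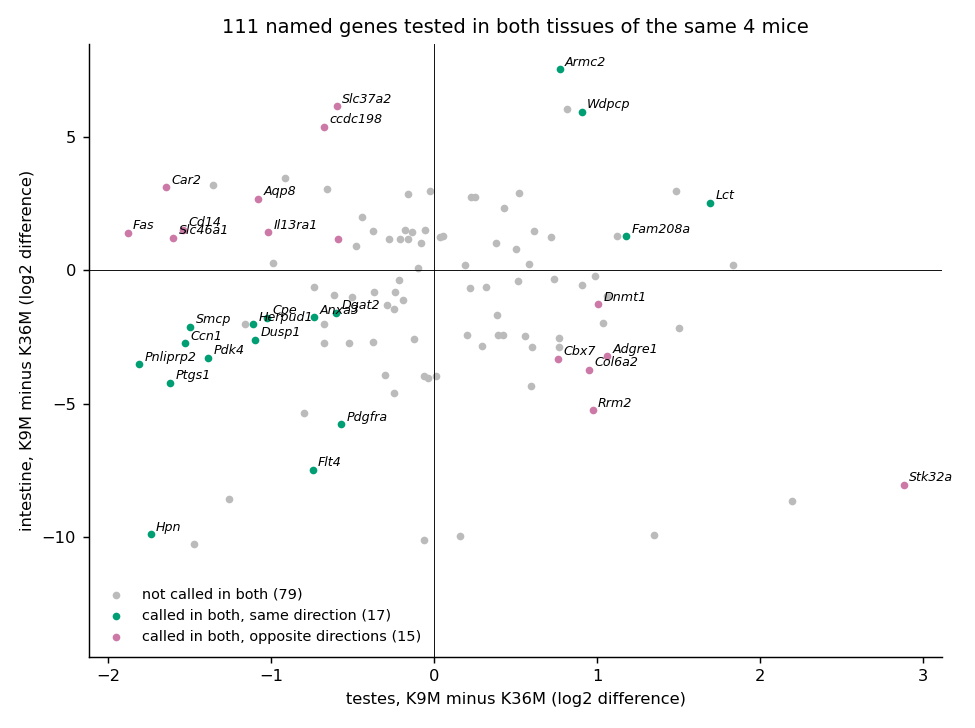
K9M minus K36M differences (log2) of the 111 named genes tested in both tissues of the same 4 mice, testes on the horizontal axis and intestine on the vertical one. Green points were called in the same direction in both (17), pink points in opposite directions (15) and grey points were not called in both (79). The axes differ in range: the testes values stay within 3 log2 units while those of intestine reach beyond 10.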

How the data were processed

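RNA of dissociated intestinal cells was made into libraries with the SMARTer v3 kit and sequenced on a HiSeq2500, per the labels' protocols. The authors deposited a table of read counts per gene for each library, and per the submitters' processing notes STAR, HTSeq and mm9 were used. Versions, settings and the use of strand are not given in the sources used here, so reads of overlapping, antisense or near-identical genes are uncertain. The 5 entries that name no gene (40.1% to 49.9% of the reads listed in the 4 libraries) were left out. Of 37620 gene IDs, 32897 were named from a GENCODE M21 table (GRCm38).

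Counts were filtered (filterByExpr), scaled by TMM and tested with edgeR 4.0.16 (quasi-likelihood, robust, R 4.3.3) with Benjamini-Hochberg adjustment over all genes tested and a threshold of 0.05. CPM values use the TMM-scaled library sizes. The code was tested on simulated data. DESeq2 1.42.0, limma-voom (limma 3.58.1), other scalings and filters, and leaving out each library were the alternatives. The interaction of mutant and tissue was fitted over the intestine and testes libraries of the 4 mice. Mouse numbers in the labels pair the tissues, and deviations of paired libraries correlated at 0.116 in K9M and -0.0532 in K36M over 12510 genes, so the fit with the mouse as a block is given beside the main one. Samples were grouped by their titles. Depth was 13396303 to 20577661 counts, and intervals and floors cover counting error only.

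Members and lists were chosen with earlier results of these data known. Named by rule were the 8 largest called differences each way (mean log2 CPM of at least 1, groups not overlapping, no predicted gene models), the 3 called members of each list with the smallest adjusted p (2 by level where none was called), the H3.3 genes and enzymes of both lysines, and the 3 largest differences from testes each way. Beyond that rule, these were chosen with their values seen: Acadl, Acot1, Acot2, Akp3, Angptl4, Asah2, Calr, Cbx2, Ccl5, Cd8a, Ciita, Cpt1a, Dio1, Dlk1, Dnase1, Ezh2, Fbln1, Hopx, Itgae, Klk1, Lcn2, Ldhb, Lgr5, Meg3, Olfm4, Pdia4, Plau, Scd1, Serpinb9b, Sis, Sod3, Tff3, Vldlr and Zg16. Start regions come from RefSeq (GRCm38.p6), with 10156 of 13639 tested genes matched by symbol. Some genes are not reported here by name and stay in the counts.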

Additional observations from a re-analysis of the deposited data

Results flagged for a closer look

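The difference between K9M and K36M itself differed between intestine and testes of the same mice in 3541 of 19775 genes, by the interaction term in edgeR (quasi-likelihood, Benjamini-Hochberg adjusted). Among the genes named by rule, 111 were tested in both tissues and 72 of them differed, 64 also with the mouse as a block. Values below are intestine minus testes on the log2 scale, so a positive value means that K9M stood higher against K36M in intestine than in testes. The causes of these differences were not tested.

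In 15 genes the tissues were called in opposite directions. Where K9M was higher in intestine the differences were Slc37a2 6.84, ccdc198 6.19, Car2 4.86, Aqp8 3.86, Fas 3.38, Cd14 3.13, Il13ra1 2.54, Slc46a1 2.94 and Gstp1 1.85. Where K36M was higher in intestine they were Dnmt1 -2.20, Cbx7 -3.98, Adgre1 -4.20, Col6a2 -4.58, Rrm2 -6.13 and Stk32a -10.87.

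Genes without a count in K9M intestine gave values that depend on the prior count of the fit and set no size: Trim67 -9.04, Sema3e -10.34, Fzd8 -10.37, Cyp21a1 -11.52, Flt4 -7.02 and Hoxb9 -7.61.

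Of the other genes with a positive difference, goblet cell and lymphocyte genes had Muc2 4.46, Fcgbp 3.12 and Cd3e 2.62. Spp1, of the fetal-like epithelium list, had 4.67. Transport, metabolism and smooth muscle genes had Slc26a6 1.57, Ddc 3.12, Gstm1 2.59, Dhcr7 1.48 and Mylk 1.68. Regulators and chromatin genes had Fzd7 3.81, Prdm16 2.54, Onecut2 1.93, Tbx3 1.77, Cdkn2b 1.65, Hist1h2bc 1.43, Ehmt1 1.36 and Jarid2 1.21, and genes of the largest intestinal differences had Armc2 6.89, Eno1b 5.35 and Wdpcp 5.15.

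Of the other genes with a negative difference, those of fat and energy metabolism had Cd36 -3.37, Pdk4 -1.80 and Ppara -2.74. Immune genes had Csf1r -2.91, Cd74 -3.21, H2-DMb1 -3.06, Usp18 -3.56 and Ptgs1 -2.50, and stromal, glial and channel genes had Pdgfra -5.10, Col6a1 -4.80, Des -3.54, Ret -4.46, S100b -3.88 and Scnn1a -3.91. Stem cell, signalling and growth genes had Ephb2 -2.22, Igfbp4 -2.37, Slc12a2 -2.53, Jag2 -2.72, Dusp1 -1.44 and Igf2 -4.24, and proliferation genes had Mcm10 -1.98, Mcm2 -2.12, Nusap1 -2.94 and Cenpe -3.60. Chromatin genes had Kdm3a -1.93, H3f3b -0.98 and Setdb1 -1.09. Gldc had -10.85 and Hpn -8.13, each with 1 count in K9M intestine, so their size is uncertain.

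With the mouse as a block 8 of these differences no longer passed by edgeR, with adjusted p in brackets: Ptgs1 (0.0704), Igfbp4 (0.0507), Cd3e (0.0612), H2-DMb1 (0.0523), Dusp1 (0.0639), Hist1h2bc (0.0568), H3f3b (0.0732) and Setdb1 (0.0612).

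H3f3b, Setdb1 and Ehmt1 were not called in intestine alone.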

How the results depend on the processing

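The 2886 calls in intestine lay within 1.5 times of that number with DESeq2 (3558), limma-voom (2829), RLE scaling (2876), library size alone (2758), no robust estimation (2932), a 1 CPM filter (2844), a 2-fold minimum (2310), the 6 intestine libraries (3570) and without testis and cell cycle genes (2913). They were 4604 without a filter on low counts, 213 at an adjusted p of 0.01 and 6090 with all 18 libraries, where the spread is shared over 3 tissues. Leaving out 1 library gave 552 to 4993 calls, since the spread then came from 1 pair of mice, assumed to hold for the lone mouse too. Of the 2886, 537 and 579 were called again without K9M mouse 1516 or 1519, and 2690 and 2739 without K36M mouse 1485 or 1553. Of 119 named genes called, 62 and 65 lost the call without K9M mouse 1516 or 1519, 4 without either K36M mouse, 98 at an adjusted p of 0.01, and at most 9 under any other setting. Direction reversed in 3 named genes, none of them called. Muc3 was -0.110 without K36M mouse 1553 and 0.73 without K36M mouse 1485. Enpep was 0.0390 without K36M mouse 1485 and -0.84 without K36M mouse 1553. Suv39h2 was -0.0217 with library size alone, -0.226 when K9M mouse 1519 was left out, -0.176 when K36M mouse 1485 was and 0.53 when K36M mouse 1553 was. The cause was not tested.

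The 3541 genes that differed between intestine and testes were 2575 with the mouse as a replicate block, 3603 with RLE scaling and 4209 with DESeq2. Leaving out 1 intestine library gave 1377 to 4293. No test pairs the mice within intestine, because the 2 mutants share no mouse number. With 2 mice a group, genes of a few counts were judged on few reads, and a gene without a call is not shown to be equal.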

Other observations

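Further groups of genes stood out on the K36M side. They were listed after the values had been seen, so their counts describe these libraries and support nothing. Of 20 tested genes known to respond to glucocorticoids, 13 were called higher in K36M and 1 higher in K9M, at a median of -2.67 against -0.02 over all genes. Fkbp5, a co-chaperone of the glucocorticoid receptor, stood at 13.5 and 5.63 CPM in K9M and 650.2 and 519 in K36M, with WT at 8.67 and 8.32 CPM (-5.93 ± 0.50, adjusted p = 0.00689 by edgeR's quasi-likelihood test). Zbtb16, a transcription factor, stood at 0.206 and 0.114 CPM in K9M and 74.7 and 43.9 in K36M, with WT at 0 and 0.135 CPM. Both K36M mice were above the other 4. Nr3c1, the receptor itself, was the call on the K9M side, at 204 and 221 CPM in K9M and 110.2 and 91.3 in K36M. The listed levels summed to 904 and 942 CPM in K9M, 3999.6 and 2832 in K36M and 1077 and 1847 in WT.

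Clock genes gave 8 calls among 19 tested, all higher in K36M, at a median of -1.15. Per1, a repressor of the clock, stood at 13.6 and 14.4 CPM in K9M and 235 and 168 in K36M, with WT at 16.2 and 31.3 CPM, and Ciart, a clock-controlled repressor, at 0.771 and 0.966 CPM in K9M and 19.5 and 8.65 in K36M, with WT at 0.828 and 1.08 CPM. The mice were kept under a 12:12 light cycle, and the part of the hour of sampling was not tested. Of 23 genes of gluconeogenesis and amino acid breakdown, 11 were called higher in K36M and 1 higher in K9M, at a median of -0.94. G6pc, the last step of glucose release, stood at 267 and 176 CPM in K9M and 842 and 517 in K36M, with WT at 91.5 and 106 CPM, and Pck1, which commits carbon to glucose, at 375 and 131 CPM in K9M and 2601 and 1146 in K36M, with WT at 621 and 816 CPM.

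Plasma protein and coagulation genes, known from liver, were tested in 22 of 36 cases, and 14 were called higher in K36M, at a median of -4.21. F10, coagulation factor X, stood at 1.80 and 1.14 CPM in K9M and 42.1 and 37.5 in K36M (-4.75 ± 0.30, adjusted p = 0.00461), and Ttr, transthyretin, at 1.59 and 1.99 CPM in K9M and 12.3 and 17.9 in K36M. The most typical liver genes stayed near 0: Alb had 2 and 1 counts in K9M and 4 and 9 in K36M, Fga had none in K9M and 34 and 3 in K36M, and Ahsg had none in any of the 4 libraries. The sums were 25.5 and 25.4 CPM in K9M, 278 and 156 in K36M and 50.5 and 57.2 in WT. Leaving out K9M mouse 1516 or 1519 gave 4 and 6 clock, 8 and 10 glucocorticoid, 5 and 1 gluconeogenesis and 7 and 8 plasma protein calls.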
